A study of Rattus norvegicus with 15 samples.

Results

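The genes described here encode the subunits of the 5 complexes of the mitochondrial respiratory chain and the ATP synthase in rat liver, with the assembly and regulatory factors that carry the same symbols. They were taken as all probe sets whose single gene symbol in the platform annotation starts with Ndufa, Ndufb, Ndufc, Ndufs, Ndufv, Sdha, Sdhb, Sdhc, Sdhd, Uqcr, Cox4, Cox5, Cox6, Cox7, Cox8 or Atp5. This gave 101 probe sets of 90 genes, out of 20826 probe sets of 14217 genes with 1 symbol on the array. Where a gene had several probe sets, the brightest stood for it, and 82 of the 90 genes passed the filter on dim probe sets described under the isoforms and were tested among 9540 genes. Of the 82 tested genes, 70 encode subunits: 34 of complex I, 4 of complex II, 7 of complex III, 10 of complex IV and 15 of complex V. The remaining 12 comprise 6 assembly factors of complex I, 4 assembly factors of complex II, the supercomplex factor Cox7a2l and the ATP synthase inhibitor Atp5if1.

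The arrays hold RNA from 15 samples of liver. The donors were male Sprague dawley rats from Charles River, aged 7 weeks when dosing began, and their feed supplied 59% of energy as fat. The rats were dosed by daily gavage for 6 weeks with 0.5% methylcellulose as vehicle, with PF-04923503 at 10 mg/kg or with PF-04923503 at 30 mg/kg, 5 samples in each group. PF-04923503 is named in the series title as an inhibitor of acetyl-CoA carboxylase (ACC), the enzyme that makes malonyl-CoA, and all groups, vehicle included, were on the high fat diet. Animals were killed with CO2 and liver was frozen, so each array reads bulk liver RNA, and the labels do not state that each sample is a different rat, so the p-values reflect variation among the samples, which may be technical.

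Electrons from NADH enter the chain at complex I and those from succinate at complex II, pass through complex III and cytochrome c to oxygen at complex IV, and the proton gradient built on the way drives ATP synthesis by complex V. In liver the chain reoxidises the carriers that fatty acid oxidation and the citrate cycle reduce, and malonyl-CoA, the product of ACC, is the known inhibitor of the carnitine palmitoyltransferase step by which fatty acids enter mitochondria. The subunits measured here are encoded in the nucleus. Their promoters are known for sites of nuclear respiratory factor 1 (NRF1), of the ETS family factor GABP, of YY1 and of the estrogen-related receptors (ERR).

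In 1 library, vehicle sample 2, the respiratory chain genes stood apart from the other samples. It was the lowest of the 15 samples in 34 of 82 genes (41.5%), against 5.70% of all genes, and lay below the gene's mean over the 15 arrays in 77 of 82. The median deviation of the 82 genes from their own means was -0.100 in this sample, and between -0.023 and 0.053 in the other 14 samples. The treated samples ran from -0.022 to 0.039 at 10 mg/kg and from -0.023 to 0.032 at 30 mg/kg, all inside the range of vehicle, which reached from -0.100 to 0.053. Vehicle sample 2 also differed in other genes: of 8 Kupffer cell and macrophage markers, it was the highest vehicle sample for all but Cd163. Cd68 read 9.32 in it and 8.61 to 8.87 in the other vehicle samples, and C1qa 10.80 and 10.10 to 10.51. Whether its cell composition bears on its respiratory chain values was not tested. The log2 difference between 3′ and 5′ control probe sets, a sign of RNA length, lay within the range of the other vehicle samples in this sample for Gapdh, actin and hexokinase, at 0.397, 1.72 and 1.78. Between groups, it was 0.394 ± 0.0321, 0.338 ± 0.0189 and 0.367 ± 0.0876 for Gapdh in vehicle, 10 mg/kg and 30 mg/kg (SD, n = 5 each). For hexokinase it was 1.83 ± 0.0517, 1.93 ± 0.0650 and 1.80 ± 0.191, and for actin 1.74 ± 0.0683, 1.73 ± 0.0339 and 1.72 ± 0.121. The groups overlap for each control, with Gapdh lower and hexokinase higher in mean at 10 mg/kg than in vehicle, and the part of RNA length in the results was not tested.

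**Figure D1:**
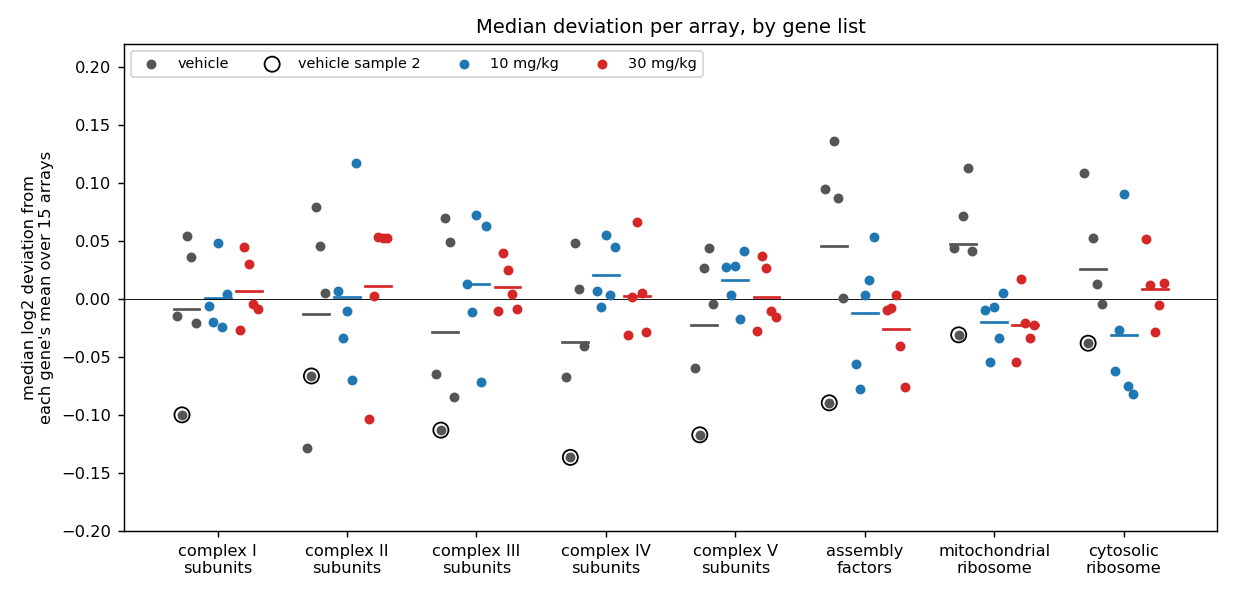
The median over a list of each gene's log2 deviation from its own mean over the 15 arrays (y axis), for every array, by list (x axis) and group; horizontal lines are group means and the ring marks vehicle sample 2. In complexes I, III, IV and V this sample is the lowest of the 15, and the treated samples of complex V lie inside the vehicle range.

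No respiratory chain gene passed the test at either dose. The log2 values of the 82 genes differed from vehicle by a median of 0.02 at 10 mg/kg and 0.02 at 30 mg/kg, while all 9540 genes had medians of -0.02 and -0.03. In mean, 58 and 47 of the 82 genes were higher than vehicle, against 3986 and 3623 of the 9540. With limma and Benjamini-Hochberg adjustment over the 9540 genes, 0 of 82 were called at 10 mg/kg, where 0.105% of all genes were called, and 0 of 82 at 30 mg/kg, where 0% were. The lowest adjusted p (limma) among the 82 was 0.0943 at 10 mg/kg, for the complex I assembly factor Ndufaf8, and 0.163 at 30 mg/kg, for the complex I subunit Ndufb6. Between the doses 0 of 82 were called, against 0% of all genes, and the lowest adjusted p (limma) was 0.851.

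The differences of single genes were small, and the spread of these probe sets allowed narrow bounds. The 95% confidence interval of the fold lay within 1.25-fold of vehicle in either direction for 80 of 82 genes (97.6%) at 10 mg/kg and for 79 of 82 (96.3%) at 30 mg/kg. Over all genes tested these shares were 72.8% and 71.3%. Of the 70 subunits, 70 had such an interval at 10 mg/kg and 69 at 30 mg/kg, the exception being Cox5a. The within-group SD had a median of 0.0744 over the 82 genes and 0.0720 over the subunits, against 0.119 over all genes. The 82 genes are also brighter, with a median log2 level of 11.48 against 8.16 over all genes. The cytosolic ribosome genes, at a median level of 12.47, had a median SD of 0.0790. Their intervals lay within 1.25-fold for 97.7% at 10 mg/kg and 95.3% at 30 mg/kg. Narrow bounds are thus not particular to the respiratory chain genes.

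**Figure D2:**
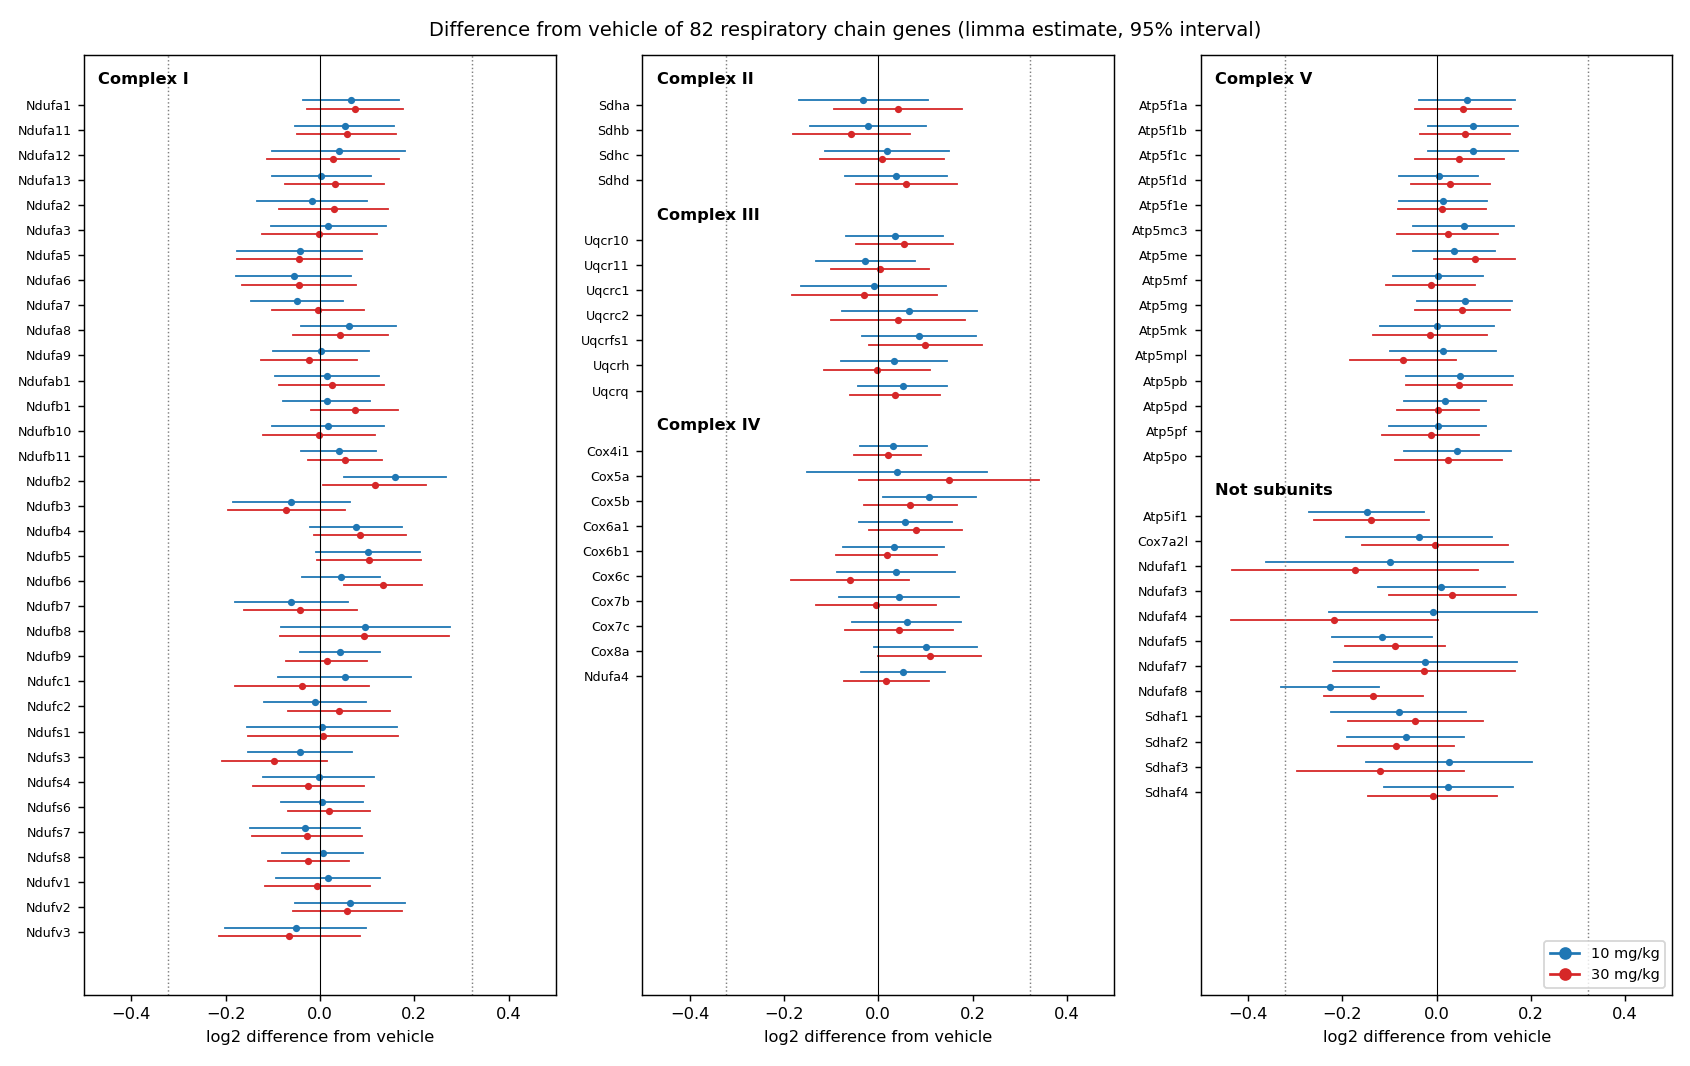
The log2 difference from vehicle (x axis) of each of the 82 tested genes, in columns by complex, at 10 mg/kg (blue) and 30 mg/kg (red); points are limma estimates, bars 95% intervals, dotted lines mark 1.25-fold. The points of subunits lie between -0.10 and 0.16, and all subunit bars except that of Cox5a at 30 mg/kg stay inside the dotted lines.

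**Figure D3:**
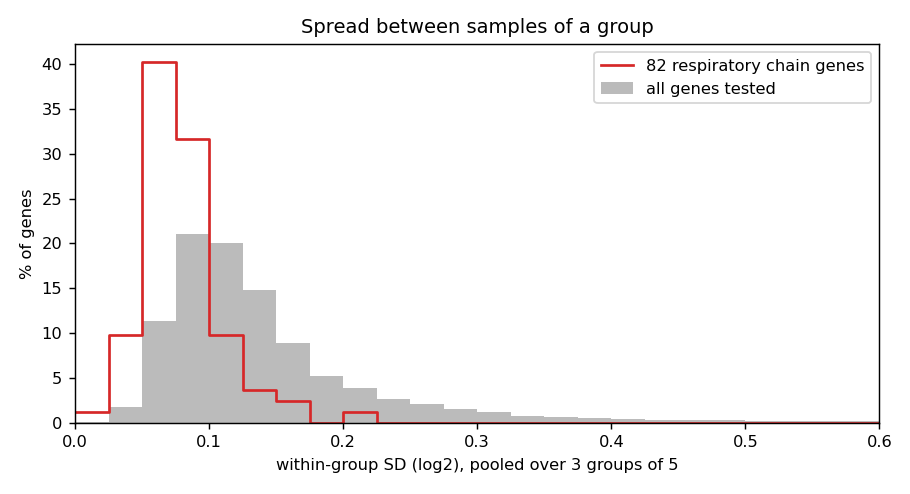
The share of genes (y axis, in percent) by within-group SD of the log2 value (x axis), for the 82 respiratory chain genes (red line) and all 9540 genes tested (grey bars); genes with an SD above 0.6 are not shown. The medians are 0.0744 and 0.119.

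At an unadjusted p under 0.05 (limma), 2 of 82 genes were higher and 3 lower at 10 mg/kg, against 4.49% of all genes higher and 8.79% lower. At 30 mg/kg 3 were higher and 2 lower, against 5.27% and 10.8%. For 30 mg/kg against 10 mg/kg 1 of 82 was higher and 0 lower, against 2.57% and 3.25%. The 5 samples of a dose did not overlap the 5 vehicle samples for 1 of 82 genes at 10 mg/kg (2.44% of all genes) and for 1 of 82 at 30 mg/kg (3.21% of all genes). Each of these shares of members is below that of all genes. The 2 doses did not overlap each other for 2 of 82 genes, which is above the 0.943% of all genes: Ndufb6 was higher at 30 mg/kg and Atp5mpl, a small ATP synthase subunit named here after its values were seen, was lower by a difference of -0.08 (limma, adjusted p = 0.881). Without vehicle sample 2 the 82 genes had a median difference of -0.0024 at 10 mg/kg and of -0.01 at 30 mg/kg. Genes at an unadjusted p under 0.05 (limma) were then 1 higher and 3 lower at 10 mg/kg, against 4.18% and 7.61% of all genes, and 1 higher and 5 lower at 30 mg/kg, against 4.53% and 9.34%. The doses share the vehicle arrays, so their values are set side by side and are not 2 independent observations.

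The promoters of the 6 genes with the extreme values of their complex at an unadjusted p under 0.05, by the rule for named genes, are shown so that those with and without motifs of the known regulators can be compared, with that of Cox8b, an isoform of muscle and brown fat, for contrast. Each line gives the 150 bases before the first listed gene start in RefSeq (build GRCr8), 5′ to 3′ on the gene's strand, with motif matches in capitals.
Ndufaf8, chr10:105879758-105879907, plus strand: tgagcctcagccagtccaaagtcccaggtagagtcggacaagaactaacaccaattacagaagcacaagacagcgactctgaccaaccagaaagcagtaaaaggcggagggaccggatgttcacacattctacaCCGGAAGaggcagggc
Cox5b, chr9:46417687-46417836, plus strand: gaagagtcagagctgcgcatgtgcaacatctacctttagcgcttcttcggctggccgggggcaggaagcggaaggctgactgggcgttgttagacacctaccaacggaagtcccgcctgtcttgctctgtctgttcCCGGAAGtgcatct
Cox8a, chr1:213833624-213833773, minus strand: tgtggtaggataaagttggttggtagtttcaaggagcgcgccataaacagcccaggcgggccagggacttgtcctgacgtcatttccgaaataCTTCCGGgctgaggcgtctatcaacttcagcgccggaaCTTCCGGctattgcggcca
Ndufb2, chr4:69334157-69334306, plus strand: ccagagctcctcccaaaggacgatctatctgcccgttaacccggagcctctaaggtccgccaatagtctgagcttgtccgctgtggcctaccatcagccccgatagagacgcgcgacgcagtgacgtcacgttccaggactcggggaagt
Ndufb6, chr5:60206153-60206302, minus strand: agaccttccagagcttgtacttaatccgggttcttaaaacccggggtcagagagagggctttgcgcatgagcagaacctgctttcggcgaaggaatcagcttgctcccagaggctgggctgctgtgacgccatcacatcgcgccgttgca
Atp5if1, chr5:150026678-150026827, minus strand: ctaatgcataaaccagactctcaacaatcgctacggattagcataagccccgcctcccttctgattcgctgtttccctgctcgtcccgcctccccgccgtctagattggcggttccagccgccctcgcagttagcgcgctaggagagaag
Cox8b, chr1:205408274-205408423, minus strand: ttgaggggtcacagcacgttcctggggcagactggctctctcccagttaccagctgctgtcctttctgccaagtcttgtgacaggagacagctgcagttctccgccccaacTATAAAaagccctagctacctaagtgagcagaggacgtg
The motifs were searched on both strands, and matches of different motifs could overlap. For NRF1 the letters searched were GCGCATGCG, a site read on either strand. The ETS motif was CCGGAAG, the core bound by GABP. The YY1 motif was AAGATGGC, often found at the start itself. For ERR the half-site AAGGTCA was searched. The TATA box, the core promoter element of many tissue-specific genes, was searched as TATAAA. Ndufaf8 and Cox5b each hold 1 ETS match close to the start, at positions -16 and -14 from it, and Cox8a holds 2, at -57 and -19. The stretches of Ndufb2, Ndufb6 and Atp5if1 hold none of the motifs, and that of Cox8b holds a TATA match at -39. The same stretches of the muscle isoforms Cox6a2 and Cox7a1, which are not printed, hold none of the motifs. Matches that cross or follow the start, such as those of YY1 in Ndufaf8 and Cox8a, are outside the bases shown. So are matches further upstream, such as that of ERR in Ndufb2 at -193.

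Promoters of 250 bases before to 50 after the start were found for 82 of the 90 genes, and for 64 of the 70 subunits. An ETS match stood in 31.3% of the 64 subunit promoters, in 18.9% of the 8009 promoters of all tested genes and in 9.22% of the 27457 promoters of the whole table. YY1 matches stood in 23.4%, 6.02% and 3.44%, NRF1 matches in 7.81%, 3.48% and 1.66%, and ERR matches in 17.2%, 2.73% and 4.37% of the same sets. TATA matches stood in 10.9%, 6.83% and 14.3% of these sets. At least 1 of the NRF1, ETS and YY1 motifs was present in 48.4% of subunit promoters and in 25.7% of those of all tested genes. By complex, ERR matches were found for 5 of the 14 ATP synthase subunits with a promoter (35.7%) and for 3 of 32 of complex I (9.38%). A match is a run of letters, and binding was not measured.

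Complex I takes electrons from NADH through a flavin and a series of iron-sulfur clusters, and 34 of its subunits were tested. Ndufs1, the largest of its iron-sulfur subunits, had log2 values of 10.84, 10.68, 11.04, 11.08 and 10.86 in the vehicle samples, 10.90, 10.82, 10.87, 10.85 and 11.10 at 10 mg/kg and 10.90, 10.90, 10.98, 10.80 and 10.95 at 30 mg/kg. The groups overlap fully, and the fold against vehicle was 1.00 at both doses, with a 95% interval of 0.899 to 1.12 at each. Ndufv1, which carries the flavin and the NADH site, stood at 11.01 ± 0.09, 11.02 ± 0.09 and 11.00 ± 0.04 (SD, n = 5 each) in vehicle, 10 mg/kg and 30 mg/kg. Its fold was 1.01 (95% interval 0.937 to 1.09) and 0.996 (0.922 to 1.08). The 6 core subunits on the array had a median difference of 0.01 at 10 mg/kg and of -0.02 at 30 mg/kg.

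Ndufb2, an accessory subunit of the membrane arm, had log2 values of 11.07, 10.91, 10.98, 11.05 and 10.89 in vehicle, 11.06, 11.24, 11.15, 11.05 and 11.21 at 10 mg/kg and 11.05, 11.12, 11.14, 11.11 and 11.06 at 30 mg/kg. The 3 highest values at 10 mg/kg lay above all vehicle samples, and the other 2 lay among them. The difference was 0.16 ± 0.05 (SE), or 1.12-fold, at 10 mg/kg (limma, adjusted p = 0.228) and 0.12 ± 0.05, or 1.08-fold, at 30 mg/kg (limma, adjusted p = 0.280). It did not pass the test at either dose. Without vehicle sample 2 the difference was 0.14 at 10 mg/kg (limma, unadjusted p = 0.0198) and 0.10 at 30 mg/kg (limma, unadjusted p = 0.0889, in place of 0.0379).

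Ndufb6, also of the membrane arm, was the 1 gene of the 82 whose 30 mg/kg samples did not overlap vehicle. It read 11.09, 11.03, 11.14, 11.18 and 11.04 in vehicle, 11.10, 11.15, 11.14, 11.15 and 11.14 at 10 mg/kg and 11.23, 11.21, 11.27, 11.24 and 11.18 at 30 mg/kg. The lowest 30 mg/kg sample lay just above the highest vehicle sample, with the 10 mg/kg samples inside the vehicle range. The difference at 30 mg/kg was 0.13 ± 0.04 (SE), 1.10-fold with a 95% interval of 1.04 to 1.16 (limma, adjusted p = 0.163), and that between the doses was 0.09 ± 0.04 (limma, adjusted p = 0.851). At 10 mg/kg the difference was 0.04 ± 0.04 (limma, adjusted p = 0.650).

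Across the 34 complex I subunits the mean was higher than vehicle for 23 and lower for 11 at 10 mg/kg, and higher for 19 and lower for 15 at 30 mg/kg. The median differences were 0.01 and 0.02. Single subunits ran from -0.06 to 0.16 at 10 mg/kg and from -0.10 to 0.13 at 30 mg/kg. Without vehicle sample 2, 16 of 34 were higher at each dose. Over all 9540 genes, 3986 and 3623 were higher in mean with every sample, and 4041 and 3751 without vehicle sample 2.

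The assembly factors, which help to build complexes I and II and are no part of the finished enzymes, were 10 among the genes tested. Ndufaf8, a complex I assembly factor, had log2 values of 8.64, 8.59, 8.69, 8.63 and 8.52 in vehicle, 8.42, 8.47, 8.42, 8.29 and 8.34 at 10 mg/kg and 8.50, 8.55, 8.52, 8.48 and 8.37 at 30 mg/kg. Every 10 mg/kg sample lay below every vehicle sample, and the 30 mg/kg samples lay between these groups with some overlap. The difference was -0.23 ± 0.05 (SE) at 10 mg/kg, a fold of 0.855 with a 95% interval of 0.795 to 0.919 (limma, adjusted p = 0.0943). At 30 mg/kg it was -0.13 ± 0.05, a fold of 0.911 (limma, adjusted p = 0.218). Ndufaf8 was thus the member closest to the threshold at 10 mg/kg and did not pass it.

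Of the 10 assembly factors tested, the mean was lower for 7 at 10 mg/kg and for 9 at 30 mg/kg, with median differences of -0.04 and -0.09. With quantile normalisation 6 of 10 were lower at each dose, and without vehicle sample 2 it was 10 of 10 at each. For comparison, 5554 and 5917 of all 9540 genes were lower in mean in the reported fit. With quantile normalisation these were 5003 and 4676, and without vehicle sample 2 they were 5499 and 5789. Ndufaf5, an assembly factor named here after its values were seen, stood at 7.88 ± 0.06 in vehicle and 7.76 ± 0.08 at 10 mg/kg (SD, n = 5 each), a difference of -0.12 (limma, adjusted p = 0.337). The 4 factors of complex II, Sdhaf1 to Sdhaf4, differed by -0.08, -0.06, 0.03 and 0.02 at 10 mg/kg and by -0.05, -0.09, -0.12 and -0.01 at 30 mg/kg. Whether assembly factors and subunits differ was not tested.

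**Figure D4:**
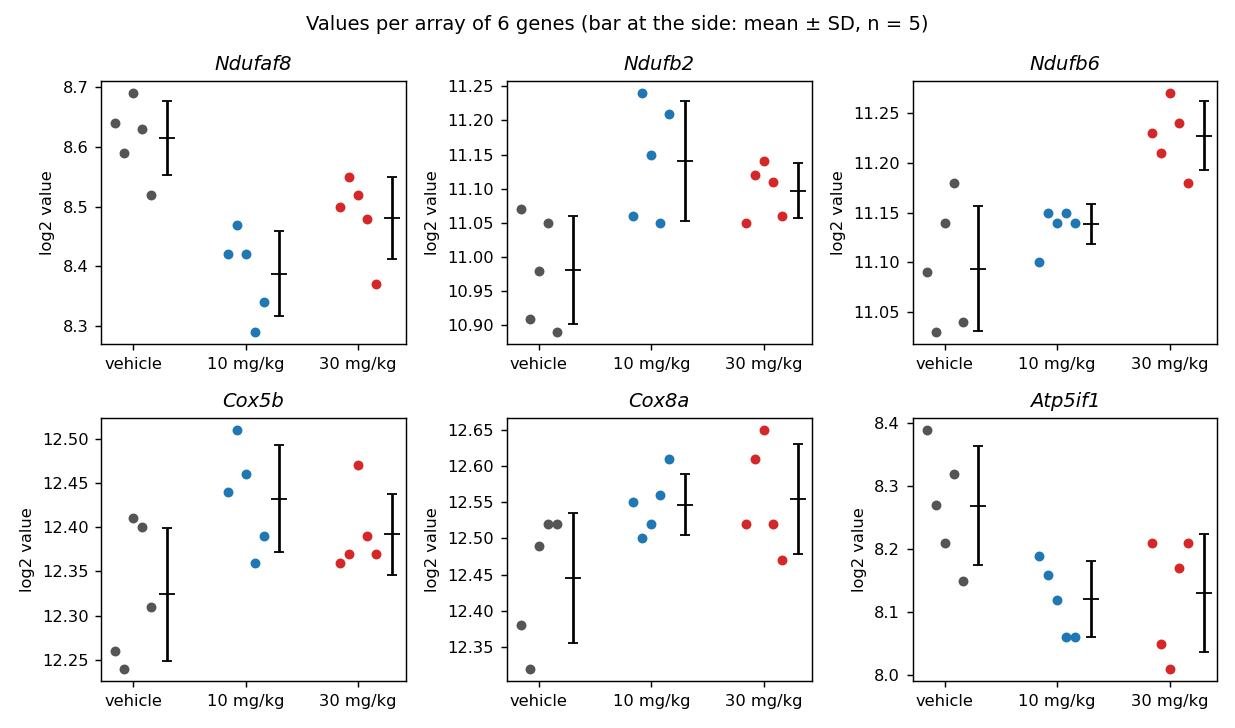
The log2 value (y axis, a separate scale for each gene) on each of the 15 arrays for 6 genes by group, with the mean ± SD of the 5 samples at the side. All 10 mg/kg samples of Ndufaf8 lie below all vehicle samples and all 30 mg/kg samples of Ndufb6 lie above them, while the groups of the other 4 genes overlap.

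Complex II oxidises succinate and is shared between the chain and the citrate cycle. Sdha, its flavoprotein, had log2 values of 11.67, 11.76, 11.93, 11.86 and 11.82 in vehicle, 11.76, 11.74, 11.86, 11.70 and 11.82 at 10 mg/kg and 11.65, 11.87, 11.99, 11.87 and 11.86 at 30 mg/kg. The groups overlap, with the lowest and the highest sample both at 30 mg/kg. The fold was 0.978 (95% interval 0.890 to 1.08) and 1.03 (0.936 to 1.13). Sdhb, the iron-sulfur subunit, stood at 12.27 ± 0.12, 12.25 ± 0.06 and 12.21 ± 0.07 (SD, n = 5 each), with folds of 0.985 and 0.961. Sdhc and Sdhd, the membrane anchors, differed by 0.02 and 0.04 at 10 mg/kg and by 0.01 and 0.06 at 30 mg/kg, and the second filtered probe set of Sdhd by 0.08 and 0.09.

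Complex III passes electrons from ubiquinol to cytochrome c. Uqcrfs1, its Rieske iron-sulfur subunit, had log2 values of 11.71, 11.72, 11.75, 11.79 and 11.70 in vehicle, 11.81, 11.73, 11.84, 11.71 and 12.01 at 10 mg/kg and 11.79, 11.79, 11.93, 11.87 and 11.79 at 30 mg/kg. The vehicle samples lie close together, and 3 of the 30 mg/kg samples read the same as the highest of them to the second decimal while the other 2 lie above it. The fold was 1.06 (95% interval 0.977 to 1.15) at 10 mg/kg and 1.07 (0.986 to 1.16) at 30 mg/kg (limma, adjusted p = 0.397). Uqcrc1, a core subunit, stood at 11.58 ± 0.17, 11.57 ± 0.09 and 11.55 ± 0.07 (SD, n = 5 each), with folds of 0.993 and 0.980. Of the 7 subunits 5 were higher in mean at each dose, and 0 had an unadjusted p under 0.05 (limma).

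Complex IV reduces oxygen, and its nuclear subunits surround a core made in mitochondria. Cox4i1, the isoform of subunit 4 found in most tissues, had the narrowest spread of the 82 genes, with a within-group SD of 0.0250. It read 12.90, 12.91, 12.95, 12.93 and 12.89 in vehicle, 12.93, 12.94, 12.96, 12.93 and 12.98 at 10 mg/kg and 12.92, 12.94, 12.99, 12.93 and 12.91 at 30 mg/kg. The groups overlap, and the fold was 1.02 (95% interval 0.973 to 1.07) and 1.01 (0.965 to 1.07). Cox5b, a subunit on the matrix side, read 12.26, 12.24, 12.41, 12.40 and 12.31 in vehicle, 12.44, 12.51, 12.46, 12.36 and 12.39 at 10 mg/kg and 12.36, 12.37, 12.47, 12.39 and 12.37 at 30 mg/kg. Its difference was 0.11 ± 0.05 (SE) at 10 mg/kg (limma, adjusted p = 0.337) and 0.07 ± 0.05 at 30 mg/kg (limma, adjusted p = 0.492). That at 10 mg/kg was 0.09 without vehicle sample 2 (limma, unadjusted p = 0.0891, in place of 0.0340).

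Cox8a, the isoform of subunit 8 found in most tissues, read 12.38, 12.32, 12.49, 12.52 and 12.52 in vehicle, 12.55, 12.50, 12.52, 12.56 and 12.61 at 10 mg/kg and 12.52, 12.61, 12.65, 12.52 and 12.47 at 30 mg/kg. Vehicle samples 1 and 2 lie below all treated samples and the other 3 lie among them. The fold was 1.07 at 10 mg/kg (limma, adjusted p = 0.412) and 1.08 at 30 mg/kg (limma, adjusted p = 0.310). Without vehicle sample 2 the difference at 30 mg/kg was 0.08 in place of 0.11 (limma, unadjusted p = 0.142). Cox5a, read by a probe set at 7.08 ± 0.18, 7.12 ± 0.11 and 7.23 ± 0.16 (SD, n = 5 each), had a fold of 1.11 at 30 mg/kg with a 95% interval of 0.972 to 1.27, the widest among the subunits. Cox6a1, Cox6b1 and Ndufa4, now placed in complex IV, differed by 0.06, 0.03 and 0.05 at 10 mg/kg and by 0.08, 0.02 and 0.02 at 30 mg/kg.

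All 10 complex IV subunits were higher in mean than vehicle at 10 mg/kg, by 0.03 to 0.11, and 8 of 10 at 30 mg/kg. The count at 10 mg/kg was also 10 of 10 without vehicle sample 2, with quantile normalisation and with arrays centred on their median. It was not without vehicle sample 4, where Cox5a differed by -0.0087. A brighter probe set that Cox5a shares with another symbol differed by -0.01 at 10 mg/kg. The median difference of the 10 subunits at 10 mg/kg was 0.05, and 0.03 without vehicle sample 2, and 0 of 10 were called at either dose. Among all 9540 genes, 3986 were higher in mean than vehicle at 10 mg/kg and 3623 at 30 mg/kg.

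The isoforms that replace liver subunits in other tissues or conditions were listed with the rest and did not pass the filter. A probe set was kept when the fifth highest of its 15 values exceeded 6.10, which is the median of the whole table. Cox6a2, Cox7a1 and Cox8b, the isoforms of heart and skeletal muscle, had group means of 4.93 to 5.06, 5.13 to 5.23 and 4.47 to 4.54. Cox4i2, an isoform known from lung, read 4.78 ± 0.13 in vehicle, 4.88 ± 0.10 at 10 mg/kg and 4.91 ± 0.10 at 30 mg/kg (SD, n = 5 each), and Ndufa4l2, known from hypoxia, 5.51 ± 0.14, 5.49 ± 0.08 and 5.49 ± 0.09. Cox6b2 and Cox7b2, known from testis, had means over the 15 arrays of 4.32 and 3.91, and the pseudogene Cox6c-ps1 one of 5.55. The 7 markers of skeletal and heart muscle with a probe set did not pass the filter either. The isoform genes were left out of the test, and no fold is given for them.

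**Figure D5:**
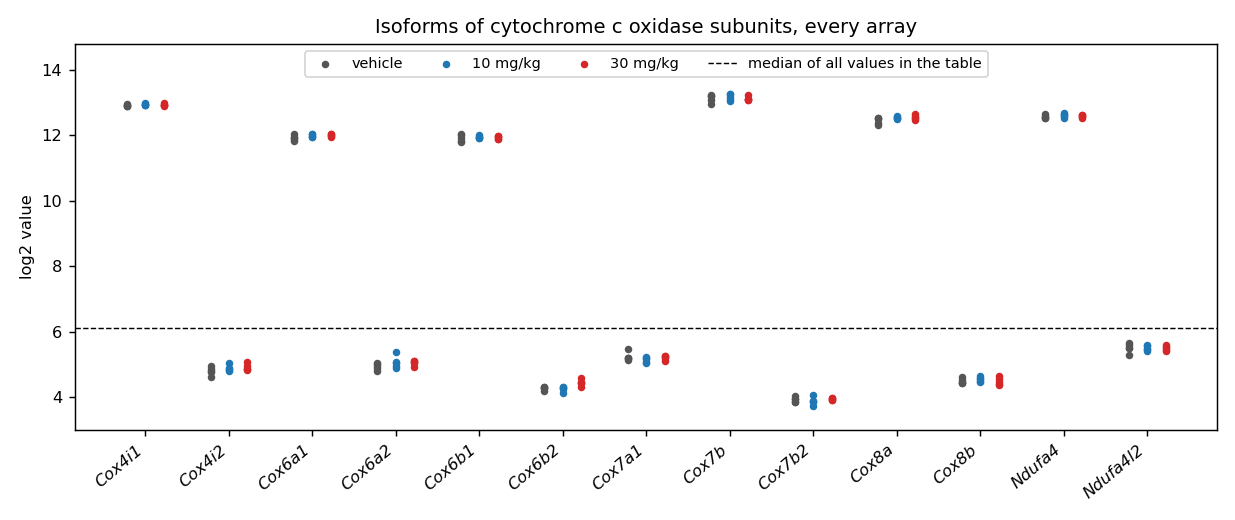
The log2 value (y axis) of each array for complex IV subunits and their isoforms (x axis), coloured by group; the dashed line is the median of all values in the table, 6.10. The values of Cox4i2, Cox6a2, Cox6b2, Cox7a1, Cox7b2, Cox8b and Ndufa4l2 lie below the line on all arrays; levels of different probe sets are not comparable with each other.

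Complex V makes ATP in its F1 head, which is driven by the turning of a ring in the membrane part. Atp5f1a, the alpha subunit, had log2 values of 12.79, 12.73, 12.85, 12.92 and 12.82 in vehicle, 12.85, 12.86, 12.85, 12.83 and 13.03 at 10 mg/kg and 12.86, 12.86, 12.91, 12.91 and 12.85 at 30 mg/kg. The groups overlap, and 1 sample at 10 mg/kg lies above the rest. The fold was 1.05 (95% interval 0.975 to 1.12) and 1.04 (0.969 to 1.12). Atp5f1b, the catalytic beta subunit, stood at 13.51 ± 0.08, 13.58 ± 0.05 and 13.57 ± 0.04 (SD, n = 5 each), with folds of 1.06 and 1.04. Atp5mc3, a c subunit of the membrane ring, stood at 13.19 ± 0.08, 13.25 ± 0.05 and 13.21 ± 0.08 (SD, n = 5 each), with folds of 1.04 and 1.02.

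All 15 ATP synthase subunits were higher in mean than vehicle at 10 mg/kg, by 0.0012 to 0.0773, and 11 of 15 at 30 mg/kg. This count rested on 1 vehicle sample: without vehicle sample 2, 8 of 15 were higher at 10 mg/kg and 8 of 15 at 30 mg/kg, and the median difference at 10 mg/kg went from 0.04 to 0.01. By role the median difference at 10 mg/kg was 0.06 for the 5 F1 subunits, 0.03 for the 4 subunits of the peripheral stalk and 0.03 for the 6 of the membrane part. At 30 mg/kg these were 0.05, 0.01 and 0.01. Over all 9540 genes, 3986 were higher in mean than vehicle at 10 mg/kg and 3623 at 30 mg/kg.

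Atp5if1, the inhibitor that binds the F1 head and limits ATP hydrolysis, read 8.39, 8.27, 8.21, 8.32 and 8.15 in vehicle, 8.19, 8.16, 8.12, 8.06 and 8.06 at 10 mg/kg and 8.21, 8.05, 8.01, 8.17 and 8.21 at 30 mg/kg. Vehicle samples 3 and 5 lie among the treated samples and the other 3 lie above all of them. The difference was -0.15 ± 0.06 (SE) at 10 mg/kg (limma, adjusted p = 0.293) and -0.14 ± 0.06 at 30 mg/kg (limma, adjusted p = 0.255). A second filtered probe set of Atp5if1 gave the opposite sign, 0.07 at 10 mg/kg and 0.19 at 30 mg/kg, so no direction is given for this gene.

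Samples of a group differed from each other for many subunits at once. The mean correlation between pairs of genes, of deviations from the group means over the 15 arrays, was 0.346 over the 70 subunits and 0.291 over the 82 genes, against 0.0112 over all genes. By complex it was 0.295 for I, 0.504 for II, 0.477 for III, 0.378 for IV and 0.410 for V. The genes of the cytosolic ribosome gave 0.440 and those of the mitochondrial ribosome 0.197. The genes share the same arrays and their normalisation, so this is a description.

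The genes around the chain were taken from lists and are given by medians and counts. Of 39 further chain and assembly genes without these prefixes, 36 were tested, with a median difference of -0.0032 at 10 mg/kg and -0.05 at 30 mg/kg, and 0 were called. In mean, 17 of the 36 were higher at 10 mg/kg and 10 at 30 mg/kg, against 3986 and 3623 of all 9540 genes. Cyc1, the cytochrome c1 of complex III, stood at 11.48 ± 0.12, 11.51 ± 0.03 and 11.49 ± 0.05 (SD, n = 5 each). The complex IV assembly factors Cox18 and Cox19 were named after their values were seen. They differed by -0.18 and -0.12 at 10 mg/kg and by -0.21 and -0.20 at 30 mg/kg, without passing the test (limma, adjusted p = 0.163 and 0.158 at 30 mg/kg). Of the other such factors listed, Cox10, Cox11 and Cox20 differed by 0.05, 0.09 and 0.13 at 10 mg/kg and by -0.10, -0.02 and 0.02 at 30 mg/kg. Surf1, Sco1, Cox15 and Cox17 were lower in mean at each dose. At an unadjusted p under 0.05 (limma), 0 of the 36 were higher and 5 lower at each dose, which is 13.9% of them against 8.79% of all genes lower at 10 mg/kg and 10.8% at 30 mg/kg. When vehicle sample 2 was left out, 4 were lower at each dose and 1 higher at 10 mg/kg, and with quantile normalisation 4 and 2 were lower and 1 higher at 10 mg/kg.

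The mitochondrial ribosome, which translates the subunits encoded in mitochondria, had 73 genes tested and a median difference of -0.06 at each dose. Its mean was lower for 63 of 73 at 10 mg/kg and for 66 of 73 at 30 mg/kg, with quantile normalisation for 56 and 52, and without vehicle sample 2 for 69 and 70. Among all 9540 genes, 5554 and 5917 were lower in mean, with quantile normalisation 5003 and 4676, and without vehicle sample 2 5499 and 5789. None of the 73 was called by limma at either dose, and at an unadjusted p under 0.05 (limma) 1 was higher and 13 lower at 10 mg/kg and 0 higher and 13 lower at 30 mg/kg. The 13 lower are 17.8% of the list, against 8.79% and 10.8% of all genes. These counts were 19 and 22 lower without vehicle sample 2, against 7.61% and 9.34% of all genes, and with quantile normalisation 10 and 6 lower (13.7% and 8.22%), against 7.01% and 5.72%. In the same samples 55 and 46 of the 70 subunits were higher in mean, and 40 and 37 without vehicle sample 2. Over all 9540 genes, 3986 and 3623 were higher, and 4041 and 3751 without vehicle sample 2. The difference between the lists was not tested. The cytosolic ribosome, with 43 genes tested, gave -0.06 and -0.02, with 39 and 29 lower in mean. At an unadjusted p under 0.05 (limma), 5 were lower at 10 mg/kg (11.6%) and 1 at 30 mg/kg. The 15 genes of the citrate cycle and pyruvate dehydrogenase gave 0.07 and -0.03. Of these, 3 were higher and 1 lower at an unadjusted p under 0.05 (limma) at each dose. That is 20% higher, against 4.49% and 5.27% of all genes. Pdha1, Pdhb and Idh2 differed by 0.27, 0.32 and -0.46 at 10 mg/kg (limma, adjusted p = 0.0740, 0.200 and 0.271). In both lists 0 were called.

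Of 16 regulators of mitochondrial gene expression 0 were called. Ppargc1a, the coactivator PGC-1alpha, read 6.12 ± 0.31 in vehicle, 6.60 ± 0.43 at 10 mg/kg and 6.47 ± 0.19 at 30 mg/kg (SD, n = 5 each), and 1.40-fold of vehicle at 10 mg/kg (limma, adjusted p = 0.301). Ppargc1a read near the filter threshold of 6.10, with vehicle samples 2 and 3 (5.92 and 5.75) and 10 mg/kg sample 4 (5.88) below it. Its relative Pprc1 differed by -0.45 at 30 mg/kg (limma, adjusted p = 0.236), where its mean of 6.24 was also near the threshold. Esrra, Nrf1 and Tfam differed by 0.07, -0.07 and -0.05 at 10 mg/kg and by -0.06, -0.03 and -0.09 at 30 mg/kg. Gabpa and Gabpb1, the genes of GABP, differed by 0.10 and 0.22 at 10 mg/kg and by 0.08 and 0.04 at 30 mg/kg. At an unadjusted p under 0.05 (limma), 2 of the 16 were higher at 10 mg/kg (12.5%, against 4.49% of all genes) and 0 lower. At 30 mg/kg 0 were higher and 1 lower. Without vehicle sample 2, 0 were higher and 1 lower at each dose.

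All 9 hepatocyte markers with a probe set passed the filter, and their summed level, the log2 of the sum of linear values, ran from 17.64 to 17.68 over the 15 samples. Such a sum is weighted to the brightest genes, such as Alb at 15.36 in vehicle, and shows little of a change in a dimmer one. In mean, 5 of the 9 were higher and 4 lower than vehicle at each dose, and 0 were called. Cyp2e1 differed by -0.28 and -0.24, Hnf4a by -0.09 and -0.14 and Cps1 by 0.12 and 0.11 at 10 and 30 mg/kg. The summed level of the 8 Kupffer cell and macrophage markers ran from 12.47 to 13.04 in vehicle, from 12.08 to 12.69 at 10 mg/kg and from 11.97 to 12.93 at 30 mg/kg, with all 8 lower in mean at each dose and 0 called. At an unadjusted p under 0.05 (limma), 6 of 8 were lower at 10 mg/kg and 1 at 30 mg/kg, against 8.79% and 10.8% of all genes. Without vehicle sample 2 these counts were 1 and 0, against 7.61% and 9.34%. Endothelial markers ran from 11.82 to 12.14, from 11.57 to 11.99 and from 11.61 to 12.01, stellate cell markers from 11.69 to 11.96, from 11.48 to 11.73 and from 11.53 to 12.07. In mean, 7 of 7 tested endothelial markers were lower at each dose. The tested stellate cell markers were lower for 7 of 7 at 10 mg/kg and 5 of 7 at 30 mg/kg. Over all 9540 genes, 5554 and 5917 were lower, and 0 of these markers were called. Red cell markers ran from 13.45 to 14.33, from 13.02 to 14.11 and from 13.10 to 14.10. In bulk samples fewer cells of a type and less RNA per cell cannot be told apart, and the part of these cells in the values of the respiratory chain genes was not tested.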

How the data were processed

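The deposited table holds log2 values per probe set, summarised by the authors before they were deposited. RMA, GCRMA 2.12.1 and limma 2.14.7 appear per the submitters' processing notes, while their roles are not given in the sources used here. The distributions of the arrays were close but not equal, and what normalisation may have removed of a shift shared by most genes was not tested. Of 31099 probe sets, 57 were controls, 436 had several symbols and 9780 none. Values ran from 2.91 to 15.38, array medians from 6.08 to 6.12, and correlations between arrays from 0.989 to 0.996. The number of arrays limits the precision. Groups and sample numbers came from the sample titles.

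Group means were fitted to all 15 arrays with limma 3.58.1 in R 4.3.3 (lmFit and eBayes). Benjamini-Hochberg adjustment covered 9540 genes, and called means an adjusted p under 0.05. The procedure was tested on simulated data. Motifs were searched and figures drawn with Python 3.11.15, pandas 2.3.3 and matplotlib 3.10.9. Genes described by value were textbook subunits and isoforms of each complex and, per comparison and complex, those with the largest difference in each direction at an unadjusted p under 0.05. Other genes were named after their values were seen. The members, lists and rules were chosen with earlier results of these data known. Alternatives were no filter, a stricter filter, other uses of probe sets, quantile normalisation, median centring, trend and robust options, 2 groups only, a replicate block and leaving out each sample. Counts by list without vehicle sample 2 and under other scalings were added after the data were seen. The same-numbered samples were not paired by the labels.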

Additional observations from a re-analysis of the deposited data

Results flagged for a closer look

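In 96 sets of 5 samples, a sample was singled out where its gap to the nearest other sample was above Dixon's critical share of the range, 0.71 for 5 samples. Chance alone singles out about 1 in 20 such sets, and 5 of the 96 were found. Sample 5 of the 10 mg/kg group was the highest for Ndufs1, at 11.0965 against 10.82 to 10.90 in the other 4, and for Atp5f1a, at 13.0296 against 12.83 to 12.86. Sample 3 of the 30 mg/kg group was the highest for Cox5b, at 12.4712 against 12.36 to 12.39. The other two concern isoforms below the filter: Cox4i2 in sample 2 at 10 mg/kg, at 5.0489 against 4.80 to 4.87, and Cox7a1 in vehicle sample 2, at 5.46099 against 5.14 to 5.19. The causes were not tested.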

How the results depend on the processing

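None of the respiratory chain genes was called by limma under any alternative run. Their lowest adjusted p (limma) ran from 0.0589 to 0.216 at 10 mg/kg and from 0.140 to 0.295 at 30 mg/kg. At an unadjusted p under 0.05 (limma) 5 members stood at each dose in the reported fit. The median difference ran from -0.0024 to 0.04 at 10 mg/kg, from -0.01 to 0.04 at 30 mg/kg and from -0.02 to 0.0031 between the doses. Its sign turned at both doses without vehicle sample 2. Among 1437 values of 20 named genes, 1 of the 240 with an unadjusted p under 0.05 in the reported fit changed sign: Atp5if1 at 30 mg/kg was 0.0278 as the mean of its probe sets, whose signs differ. Of the 1197 others, 54 changed sign. The same-numbered samples of different groups correlated by -0.0706 to 0.195, over 0.1 in 3 of 15 pairs. Their median was 0.0489, against -0.0115 for samples of different numbers. Such correlations cannot decide whether the numbers pair the samples. With the replicate block 0 members were called at either dose. Over all genes 0 in place of 10 were called at 10 mg/kg with the block, and from 0 to 26 when 1 sample was left out. Quantile normalisation moved the members higher in mean at 30 mg/kg from 47 to 60 of 82, and median centring to 41. Over all 9540 genes the count went from 3623 to 4863 and to 3169.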

Other observations

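Probe sets that carry the symbol of a respiratory chain subunit beside that of a near copy were outside the rule and were tested in a fit of 15929 probe sets. The probe set of Ndufa10 and Ndufa10l1 read 9.11, 9.60, 10.01, 9.92 and 9.67 in vehicle, 9.35, 9.23, 9.20, 9.28 and 9.41 at 10 mg/kg and 9.47, 9.71, 9.18, 9.15 and 9.97 at 30 mg/kg. The samples at 10 mg/kg lie close together at the low end of the vehicle range, and the difference was -0.37 (limma, adjusted p = 0.394). Ndufa10 is an accessory subunit of complex I, and which of the copies was read cannot be told from this probe set. The probe set shared by Cox5a and LOC100361008 differed by -0.01 at 10 mg/kg and 0.02 at 30 mg/kg, where the probe set with Cox5a alone differed by 0.04 and 0.15. Those of Atp5mc1, Atp5mc2, Cox7a2, Ndufs5 and Uqcrb, each with a near copy, differed by -0.02, -0.10, 0.06, 0.02 and -0.02 at 10 mg/kg and by -0.01, -0.02, 0.05, 0.03 and -0.01 at 30 mg/kg. None of the 7 probe sets was called by limma, and 1, that of Ndufa10, had an unadjusted p under 0.05 at 10 mg/kg.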
